A study of Mus musculus with 9 samples.

Results

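The genes described here make, store, take back and break down the catecholamines dopamine, noradrenaline and adrenaline. There were 9 of them among 21938 protein-coding genes: Th, Gch1, Ddc, Dbh and Pnmt for synthesis, Slc18a1 and Slc18a2 for storage, Slc6a2 for reuptake and Maoa for breakdown. A binding site of the glucocorticoid receptor (GR) or the mineralocorticoid receptor (MR) was assigned to a gene when its summit, the position of highest signal, lay in the gene body or within 20 kb of it. By this rule 67 of 30508 deposited peaks belonged to these genes. All 9 genes were looked up in each list, and Maoa had no peak in any.

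N2A is a mouse neuroblastoma line. All samples came from N2A cells in charcoal-stripped serum that had been transiently transfected with both EGFP-GR and mCherry-MR, so the receptors were overexpressed and tagged. The constructs encode rat receptors according to the methods of the study and mouse receptors according to the deposited description. Cells received vehicle (treatment i), 100 nM corticosterone (CORT) for 20 minutes (treatment ii), or the same CORT exposure, washes and a further 40 minutes without CORT (washout, treatment iii). Antibodies to the EGFP and mCherry tags pulled down GR and MR for ChIP-nexus, in which an exonuclease trims precipitated DNA up to the crosslinked protein, and input chromatin was kept from each treatment.

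Each of the 6 combinations of receptor and treatment had 1 list of MACS2 peaks made from 3 combined replicates, so no value has a replicate error and no test between conditions was possible. GR lists held 64 (vehicle), 10602 (CORT) and 246 (washout) peaks, and MR lists held 73, 14638 and 4885. Peak strength is given as −log10 p against input. It grows with sequencing depth, which the lists do not give, so a peak was ranked within its own list (rank 1 is strongest, tied peaks take their mean rank) and values were not compared as amounts between lists. Where no peak is listed, binding was not detectable with the depth and threshold behind that list. The files hold binding and not expression, so the labelled cell type could not be checked against marker genes.

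Catecholamines are made from tyrosine in a chain of enzymes. Tyrosine hydroxylase (Th) makes L-DOPA with tetrahydrobiopterin as cofactor, aromatic L-amino acid decarboxylase (Ddc) turns L-DOPA into dopamine, dopamine beta-hydroxylase (Dbh) makes noradrenaline, and Pnmt methylates it to adrenaline. In the adrenal medulla glucocorticoids from the surrounding cortex are known to maintain Pnmt, which links the stress hormones to adrenaline. GR and MR are steroid receptors that bind the same DNA element, the glucocorticoid response element (GRE), which consists of inverted arms around 3 free bases.

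The sequences at the strongest site that both receptors shared after CORT are given here for each of the 6 genes that had one, with a further strong site of Ddc. Each runs 75 bp to either side of the MR summit after CORT, on GRCm38 and 5′ to 3′ on the strand of the gene. Capitals mark a GRE. It was counted where either strand matched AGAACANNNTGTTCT with no more than 3 mismatches among 12 fixed positions.
Th, chr7:142918761-142918911, minus strand: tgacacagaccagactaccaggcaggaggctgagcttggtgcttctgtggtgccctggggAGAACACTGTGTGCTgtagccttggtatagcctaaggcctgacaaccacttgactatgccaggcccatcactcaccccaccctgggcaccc
Ddc intron 7, chr11:11844560-11844710, minus strand: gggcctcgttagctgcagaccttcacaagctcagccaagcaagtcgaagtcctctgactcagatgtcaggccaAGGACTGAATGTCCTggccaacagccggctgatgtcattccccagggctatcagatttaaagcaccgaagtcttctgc
Ddc intron 4, chr11:11865273-11865423, minus strand: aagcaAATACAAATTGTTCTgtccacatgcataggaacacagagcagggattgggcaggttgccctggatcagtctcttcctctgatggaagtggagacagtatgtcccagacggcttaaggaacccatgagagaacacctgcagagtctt
Dbh, chr2:27156615-27156765, plus strand: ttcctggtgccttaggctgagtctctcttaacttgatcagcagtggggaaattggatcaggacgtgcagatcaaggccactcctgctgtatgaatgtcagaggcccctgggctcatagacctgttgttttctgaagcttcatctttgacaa
Pnmt, chr11:98386023-98386173, plus strand: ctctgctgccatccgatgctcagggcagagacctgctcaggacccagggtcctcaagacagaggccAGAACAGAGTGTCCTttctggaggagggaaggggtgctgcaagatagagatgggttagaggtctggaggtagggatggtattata
Slc18a1 intron 11, chr8:69049632-69049782, minus strand: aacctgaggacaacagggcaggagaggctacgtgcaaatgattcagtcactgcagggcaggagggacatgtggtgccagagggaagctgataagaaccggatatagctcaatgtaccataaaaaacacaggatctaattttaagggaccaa
Slc18a2 intron 3, chr19:59266171-59266321, plus strand: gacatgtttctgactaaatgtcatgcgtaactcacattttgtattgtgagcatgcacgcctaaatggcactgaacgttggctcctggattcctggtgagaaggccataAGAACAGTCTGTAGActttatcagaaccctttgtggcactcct

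The GRE at Pnmt and that at Th each had 1 mismatch, with the left arm of 6 bases complete and 5 bases of the right arm matched. The one in Ddc intron 4 had 2 mismatches, and those in Ddc intron 7 and Slc18a2 intron 3 had 3. The Dbh and Slc18a1 stretches held no GRE at this threshold.

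After vehicle, none of the 9 genes had a GR or an MR peak, against 0.109% of all protein-coding genes for GR and 0.109% for MR. After CORT, 7 genes had a GR peak (all but Slc6a2 and Maoa), against 26.3% of protein-coding genes, and 8 had an MR peak (all but Maoa), against 30.2%. After washout, Ddc was the one gene with a GR peak (background 1.02%), whereas Th, Ddc, Dbh, Pnmt and Slc18a1 had MR peaks (5 of 9, background 14.3%). The shares are descriptions and carry no test. The genes were long: their median length was 38.4 kb against 17.4 kb for all protein-coding genes, 8 of the 9 were longer than that median, and longer genes offer more room for peaks.

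In all, 22 GR and 33 MR peaks lay at these genes after CORT, and 1 GR and 11 MR peaks after washout. Slc18a2 had the most after CORT over both receptors, with 9 GR and 7 MR peaks, while Ddc had the most for MR. As many GR peaks or more were found at 0.638% of protein-coding genes. Ddc had 5 GR and 8 MR peaks after CORT and 4 MR peaks after washout, a number of washout peaks reached by 1.13% of protein-coding genes.

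**Figure D1:**
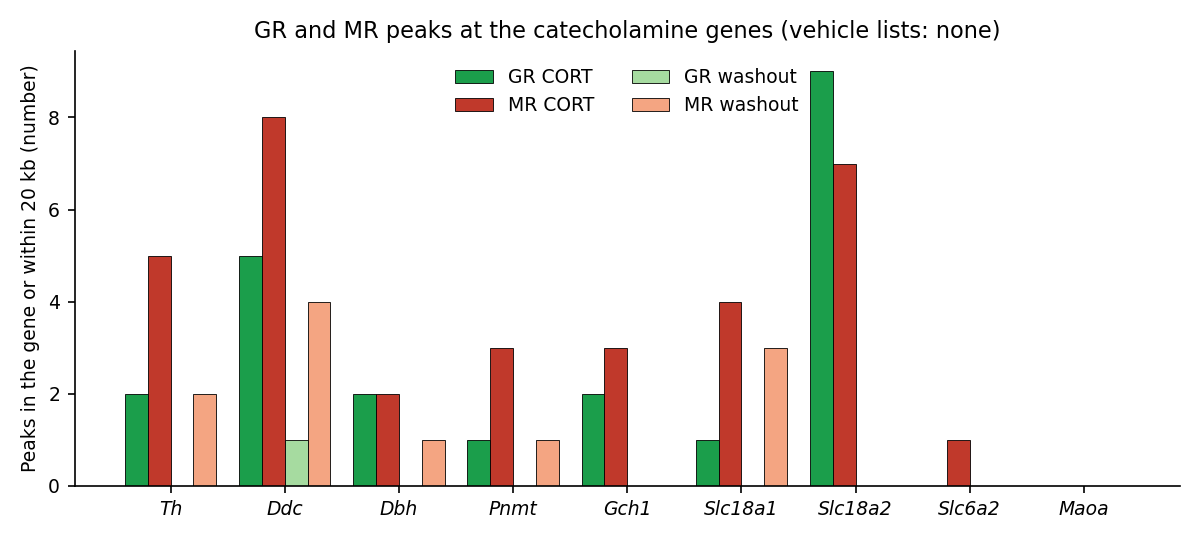
Number of peaks with a summit in each gene or within 20 kb of it (vertical axis) for each gene, with 1 bar for each of 4 lists. Slc18a2 had the most CORT peaks in all (9 GR, 7 MR) and no washout peak, Ddc was the one gene with peaks in all 4 lists, and the vehicle lists had none.

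Few of these peaks lay close to a start site, although no share over the whole lists is set beside the counts of place. Of the 22 GR CORT peaks 12 were in the gene body and 3 within 1 kb of the start of the principal transcript, while 13 were more than 10 kb from it. Of the 33 MR CORT peaks 21 were in the gene body, 3 within 1 kb and 24 beyond 10 kb. The gene with the nearest transcription start was the gene itself for 16 GR and 24 MR CORT peaks and for 7 of the 11 MR washout peaks.

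**Figure D2:**
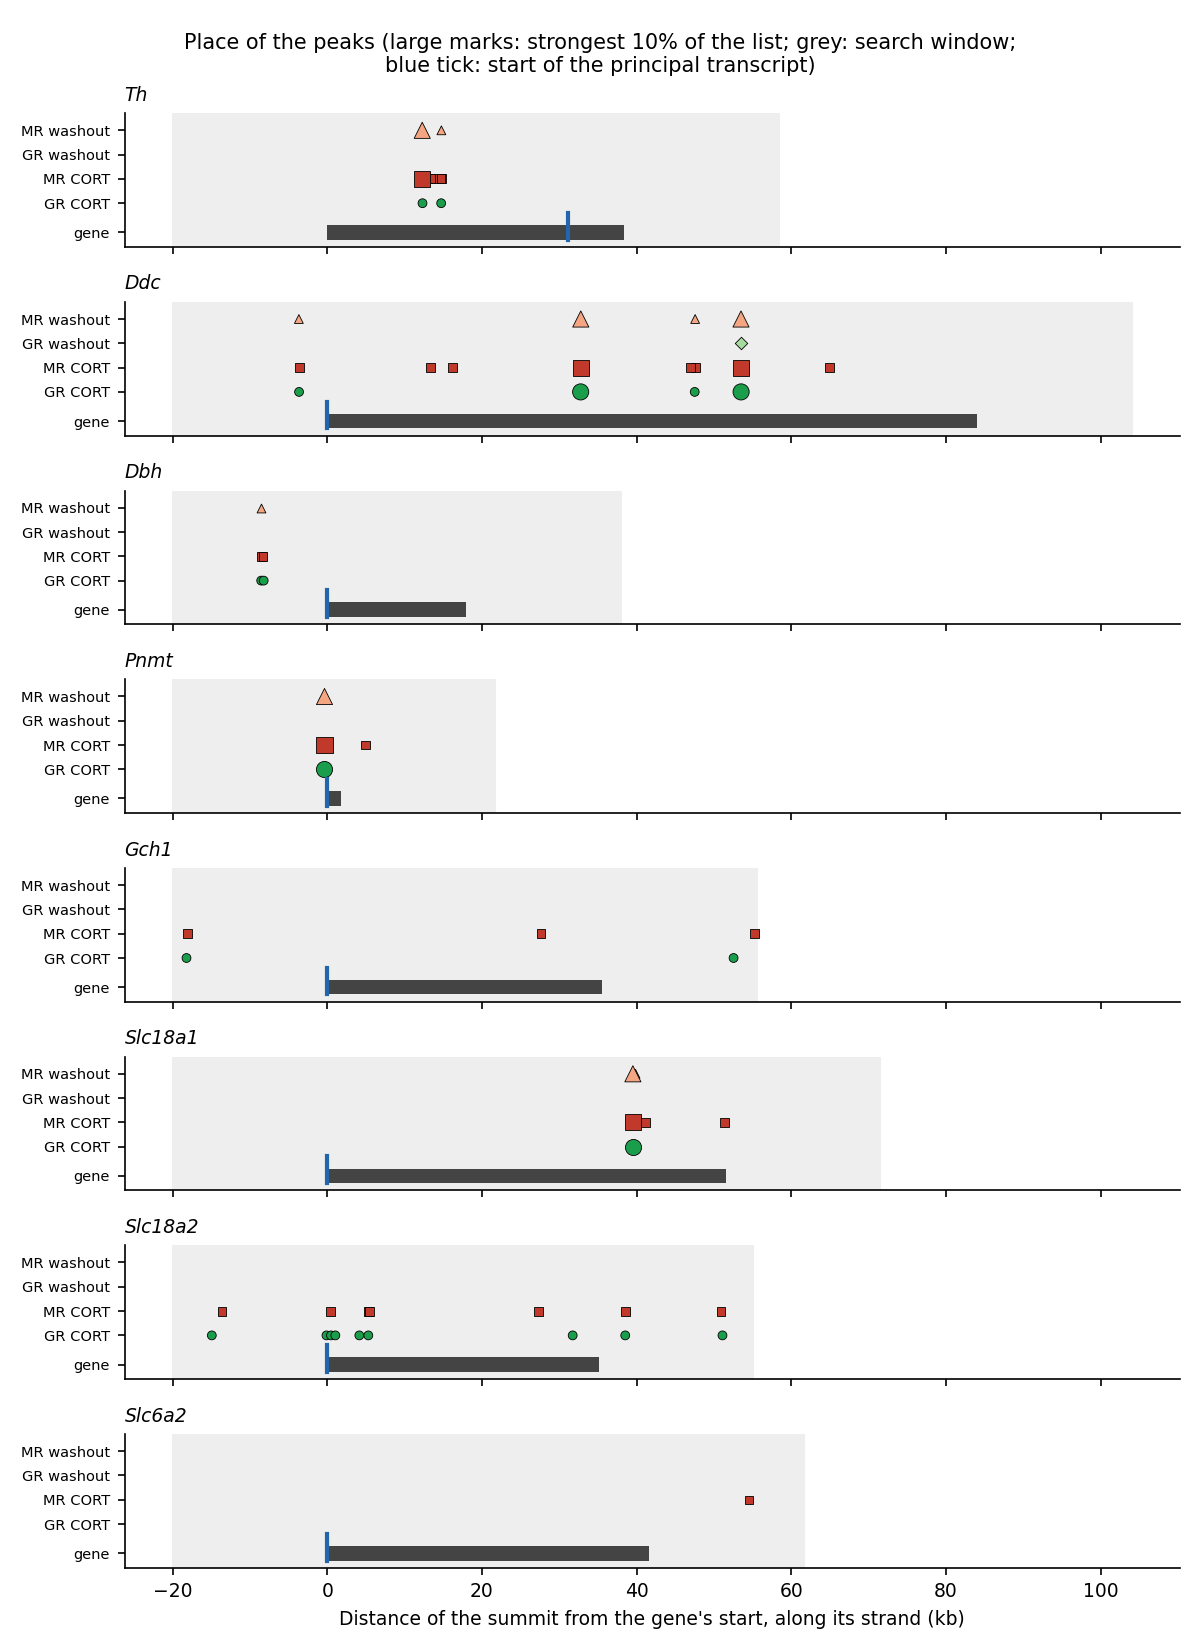
Distance of each summit from the gene's outermost annotated start in kb, along the gene's strand, for the 8 genes with a peak, with a row for each list. Large marks are peaks in the strongest 10% of their list, the black bar is the gene, the grey area the window of 20 kb to either side and the blue tick the start of the principal transcript, which lies inside the annotated gene for Th. The large marks stack in the same columns at Ddc, Pnmt and Slc18a1, in the GR CORT, MR CORT and MR washout rows.

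Th (chr7:142892752-142931128, minus strand) encodes the enzyme of the first and rate-limiting step. It had 2 GR and 5 MR peaks after CORT and 2 MR peaks after washout, all of them between the outermost annotated start and the start of the principal transcript, and so upstream of the starts of the principal and the RefSeq transcript. The stronger site lay 18.8 kb upstream of the principal start and held the GRE shown, 8 bp from the MR summit. Its −log10 p was 14.2 for GR (rank 1305 of 10602), 26.2 for MR (rank 361 of 14638) and 24.2 for MR after washout (rank 173 of 4885). This site therefore stood in the strongest 10% of both MR lists, and at 12.3% of the way down the GR list. The other shared site, 16.4 kb upstream, had −log10 p values of 14.2 for GR, 14.9 for MR and 11.8 for MR after washout. A further 2 MR peaks between them (8.60 and 10.6) met no GR peak and no washout peak.

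Gch1 (chr14:47153895-47189413, minus strand) encodes GTP cyclohydrolase, which starts the synthesis of the cofactor tetrahydrobiopterin. Its peaks were weak: 2 GR peaks with a −log10 p of 7.38 and 3 MR peaks with 7.83, values that 1187 GR and 1229 MR peaks of the same lists shared. They stood 74.1% of the way down the GR list and 65.5% down the MR list. No GR and MR peak overlapped, the nearest being 22 bp apart at 18.2 kb and 18.1 kb upstream of the start, and none of these sites had a washout peak. The MR peak in intron 3 of the principal transcript, 27.6 kb from the start, had 2 GRE matches within 100 bp, the best with 3 mismatches.

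Ddc (chr11:11814101-11898144, minus strand) held the strongest site of the group. It lay in intron 7, 53.5 kb from the start, with a peak in both receptors' CORT and washout lists. The −log10 p was 46.0 for GR after CORT (rank 15 of 10602), 51.7 for MR after CORT (rank 7.5 of 14638), 12.1 for GR after washout (rank 74.5 of 246) and 47.3 for MR after washout (rank 7.5 of 4885). The MR site thus stood among the strongest peaks of its list both with CORT present and after washout, while the GR site stood 0.141% of the way down its CORT list and 30.3% down a much shorter washout list. The 4 summits lay 4 to 14 bp from the centre of the GRE printed above, and an AP-1 consensus, TGACTCA, also lay within 100 bp. The nearest transcription start was that of Fignl1, 35.7 kb away.

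The other strong Ddc site lay in intron 4, 32.8 kb from the start. Its −log10 p was 18.1 for GR (rank 595), 19.6 for MR (rank 882) and 19.3 for MR after washout (rank 344), in the strongest 10% of all 3 lists, and GR had no peak there after washout. Its GRE lay 63 bp from the MR summit. A further 2 sites were shared by the receptors and had an MR washout peak although they were weak. The site in intron 6, 47.6 kb from the start for MR, had 11.4 for GR, 9.17 for MR and 6.42 for MR after washout. The site 3.6 kb upstream of the start had 9.99 for GR, 5.31 for MR and 7.05 for MR after washout, with a GRE of 3 mismatches (AACACACACTGTGCT) 1 bp from the GR summit. The remaining Ddc sites, 1 for GR and 4 for MR, had −log10 p values from 5.31 to 9.17 and no washout peak, and the MR peak nearest the gene's end, 64.9 kb from the start, was also nearer to the start of Fignl1.

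Dbh (chr2:27165233-27183200, plus strand) had a pair of shared sites, both upstream and inside the annotated non-coding gene Dbhos. At 8.54 kb from the start the GR and MR summits after CORT fell on the same base. The −log10 p there was 12.9 for GR (rank 1625.5), 10.8 for MR (rank 4624.5) and 8.34 for MR after washout (rank 3113). The second site, 8.22 kb upstream for GR and 8.32 kb for MR, had 9.05 for GR and 8.32 for MR and no washout peak. These were peaks of middling rank, and neither summit had a GRE with at most 3 mismatches within 100 bp.

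Pnmt (chr11:98386450-98388181, plus strand), the shortest gene of the group at 1.73 kb, had its shared site at the promoter. The GR summit lay 400 bp upstream of the annotated start, the stronger MR summit 352 bp and the MR washout summit 357 bp. The −log10 p was 22.0 for GR (rank 280 of 10602), 20.0 for MR (rank 816 of 14638) and 26.9 for MR after washout (rank 112 of 4885), so the site stood 5.57% of the way down the MR CORT list and 2.29% down the MR washout list. The GRE lay 2 bp from the MR summit after CORT, 3 bp from the MR summit after washout and 46 bp from the GR summit. A weaker MR peak 536 bp upstream (9.75) overlapped the same GR peak, which was 506 bp wide. An MR peak 3.18 kb past the end of the gene (9.58) had no partner, and GR had no washout peak at Pnmt.

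**Figure D3:**
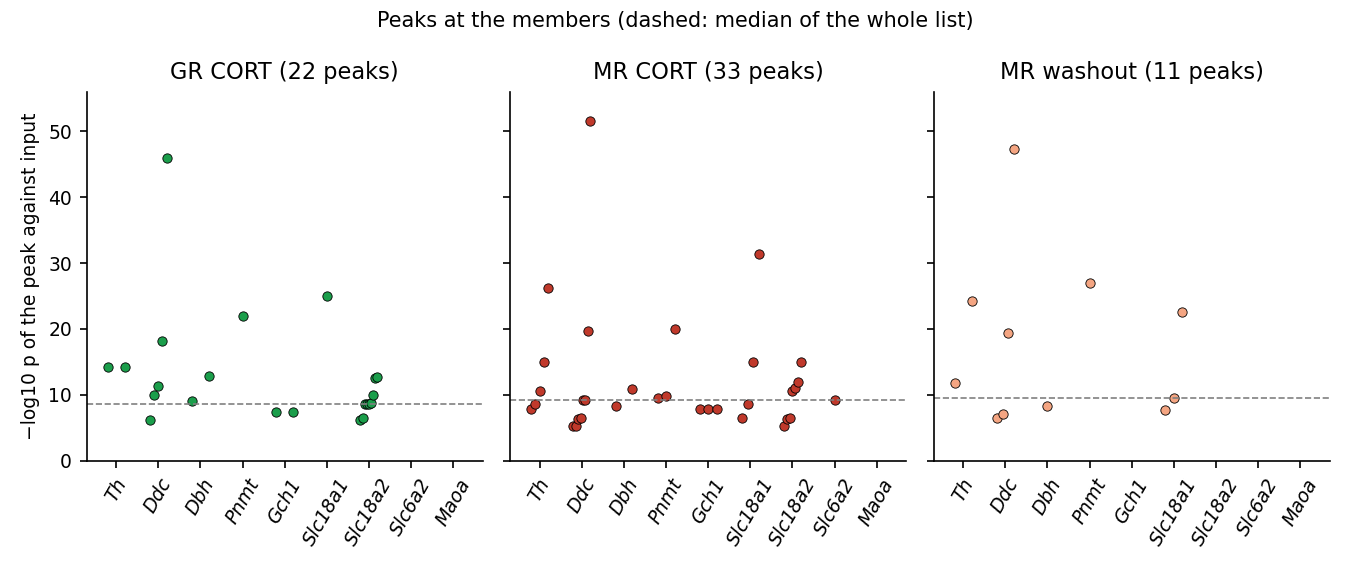
The −log10 p against input of each peak (vertical axis) by gene, in a panel each for GR after CORT, MR after CORT and MR after washout. The dashed line is the median of the whole list, and heights are not comparable between panels because −log10 p grows with depth. A single Ddc peak stands highest in each panel (46.0, 51.7 and 47.3), and the Slc18a2 peaks lie at or below 14.9.

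The vesicular monoamine transporters load catecholamines into granules and synaptic vesicles. Slc18a1 (VMAT1; chr8:69037711-69089235, minus strand), the form typical of endocrine cells, had 1 shared site, in intron 11 at 39.5 kb from the start and inside the overlapping non-coding gene Gm15716. The GR peak had a −log10 p of 25.1 (rank 170.5). MR had a pair of peaks under it, with 31.4 (rank 166.5) and 14.9 (rank 2069.5). After washout MR had 3 peaks there, with 22.6 (rank 224), 9.57 and 7.69, and GR had none. This site stood in the strongest 5% of all 3 lists without a GRE in the stretch printed. The nearest protein-coding start was that of Atp6v1b2, 38.9 kb away. A further 2 MR peaks were weak (8.60 in the last exon, 6.54 in intron 11) and had no GR or washout partner, although each had a GRE match with 2 mismatches within 100 bp.

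Input chromatin was denser around Slc18a1 than around the other members. Border pairs are stretches between exonuclease stops on opposite strands. Within 1 Mb of Slc18a1 the 3 inputs together had 58 border pairs per Mb, against 1 to 10 per Mb around the other 8 genes, and chromosome 8 as a whole had 31.4 per Mb. No input border pair lay within 20 kb of Slc18a1. The part of this density in the Slc18a1 peaks was not tested.

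Slc18a2 (VMAT2; chr19:59260896-59296012, plus strand), the form typical of neurons, had the most sites (14) but no strong one. Of these, 7 had GR only, 5 MR only and 2 both receptors. The shared site in intron 3 had −log10 p values of 12.8 for GR (rank 1832), 5.31 kb from the start, and 14.9 for MR (rank 2069.5), 5.35 kb from the start. The shared site past the end of the gene, 38.5 kb from the start and inside Pdzd8, had 8.66 for GR and 6.28 for MR. Around the promoter GR had peaks 102 bp upstream (6.41), 484 bp downstream in coding exon 2 (12.6) and 1045 bp downstream in intron 2 (9.99), and MR had a peak 370 bp downstream (6.54). These did not overlap, but the GR and MR peaks at 484 and 370 bp were 20 bp apart. None of the Slc18a2 peaks was in the strongest 10% of its list, and none had a peak of either receptor after washout. The 5 peaks from 31.7 kb onwards were nearer to an annotated start of Rps12-ps3 than to that of Slc18a2.

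Slc6a2 (chr8:92960079-93001667, plus strand) encodes the noradrenaline transporter, which returns noradrenaline to the nerve ending. It had 1 MR CORT peak, 12.9 kb past its end, with a −log10 p of 9.17 (rank 7140.5), nearer to the start of Ces1a, and no GR peak. Maoa (chrX:16619698-16687818, plus strand) encodes monoamine oxidase A, which deaminates catecholamines and serotonin. No peak of either receptor was detectable at Maoa after any treatment, although its window of 108.1 kb was the second longest of the 9.

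Joining peaks that overlapped by at least 1 bp gave 40 sites at the 9 genes. Both receptors had a CORT peak at 12 of them, GR alone at 10 and MR alone at 18. The GR and MR summits of the shared sites were 0 to 112 bp apart, with a median of 27.5 bp. Shared sites belonged to 6 genes (background 18.8% of protein-coding genes with a GR CORT peak overlapping an MR CORT peak). Their −log10 p had a median of 13.5 for GR and 14.9 for MR, against 8.02 at the GR-only and 8.21 at the MR-only sites. No site of a single receptor had a −log10 p above 12.6.

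The washout peaks at these genes lay at shared sites. MR was listed after washout at 9 of the 12 shared sites, at none of the 10 GR-only sites and at none of the 18 MR-only sites. Over the whole lists, joined into sites in the same way, an MR washout peak was found at 43.3% of 6366 shared, 5.26% of 4109 GR-only and 10.02% of 7624 MR-only sites, so shared sites had the highest share throughout the series too. The 9 sites lay at Ddc (4), Th (2), Dbh (1), Pnmt (1) and Slc18a1 (1). By a stricter rule, direct overlap of an MR CORT peak with an MR washout peak, these 5 genes were also met. The background for that rule was 11.5% of protein-coding genes. The 3 shared sites without one were at Dbh (1) and Slc18a2 (2). The MR CORT −log10 p ranged from 5.31 to 51.7 at sites with a washout peak and from 6.28 to 14.9 at those without, so the ranges overlapped. GR was listed after washout at 1 shared site, in Ddc intron 7.

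**Figure D4:**
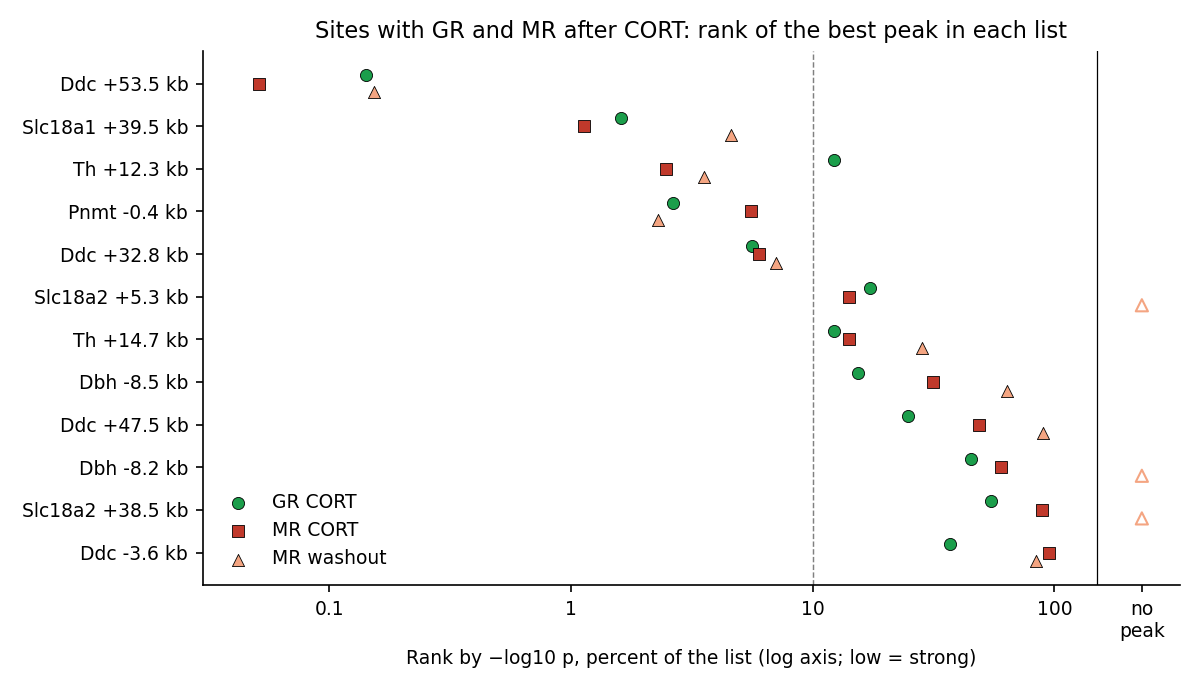
Rank of the best peak of GR after CORT, MR after CORT and MR after washout, as a percent of the length of its list (horizontal log axis, strong peaks on the left), at the 12 sites shared after CORT, named by gene and distance from the start. Open marks on the right are sites with no MR washout peak (1 at Dbh, 2 at Slc18a2), and the dashed line marks 10%.

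The strongest 10% of each list, a limit chosen with values known, held sites of the same few genes. For GR after CORT it held 4 peaks at Ddc (2), Pnmt and Slc18a1, or 3 genes against 4.59% of protein-coding genes. For MR after CORT it held 5 peaks, with Th added, or 4 genes against 5.68%. For MR after washout it held 5 peaks at those same 4 genes against 2.32%. Most of their other peaks were of middling or low rank. The members' median peak stood 37.1% of the way down the GR CORT list, 48.8% down the MR CORT list and 28.4% down the MR washout list.

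Overlap shares at these genes were close to those of the whole lists. Of the 22 GR CORT peaks, 12 (54.5%, 95% Wilson interval 34.7% to 73.1%) overlapped an MR CORT peak, against 61.0% of the whole GR list. Of the 33 MR CORT peaks, 15 (45.5%, 29.8% to 62.0%) overlapped a GR CORT peak, against 47.6%. After washout an MR peak overlapped 10 of the 33 MR CORT peaks (30.3%, 17.4% to 47.3%), against 24.6%, and a GR peak overlapped 1 of the 22 GR CORT peaks (4.55%, 0.807% to 21.8%), against 2.13%. In each case the interval, which covers counting error only, contained the value of the whole list. It counts peaks as separate although some lie at the same site, as 2 MR CORT peaks do at the Pnmt promoter, so it may be too narrow. Of the 11 MR washout peaks 9 overlapped an MR CORT peak (81.8%, 52.3% to 94.9%), against 75.7% of the whole list, and the other 2, in intron 6 and upstream of Ddc, met the GR CORT peak of their site and not the MR CORT peak.

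A GRE with at most 3 mismatches was found no more than 100 bp from the summit for 8 of the 22 GR CORT peaks (36.4%, 19.7% to 57.0%), 11 of 33 MR CORT peaks (33.3%, 19.8% to 50.4%) and 5 of 11 MR washout peaks (45.5%, 21.3% to 72.0%). The whole lists had 37.7%, 39.9% and 45.5%, and windows centred 1000 bp from all summits had 14.6%, 15.2% and 15.3%. A GRE with at most 1 mismatch occurred in 2 GR CORT (9.09%, 2.53% to 27.8%) and 2 MR CORT peaks (6.06%, 1.68% to 19.6%). It also occurred in 2 MR washout peaks (18.2%, 5.14% to 47.7%). All were those of the Pnmt and Th sites shown. The shares in the whole lists were 1.84%, 2.04% and 3.54%. The GR CORT and MR washout intervals lay above these, but each rests on 2 peaks, at the same 2 sites, and several limits were compared.

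**Figure D5:**
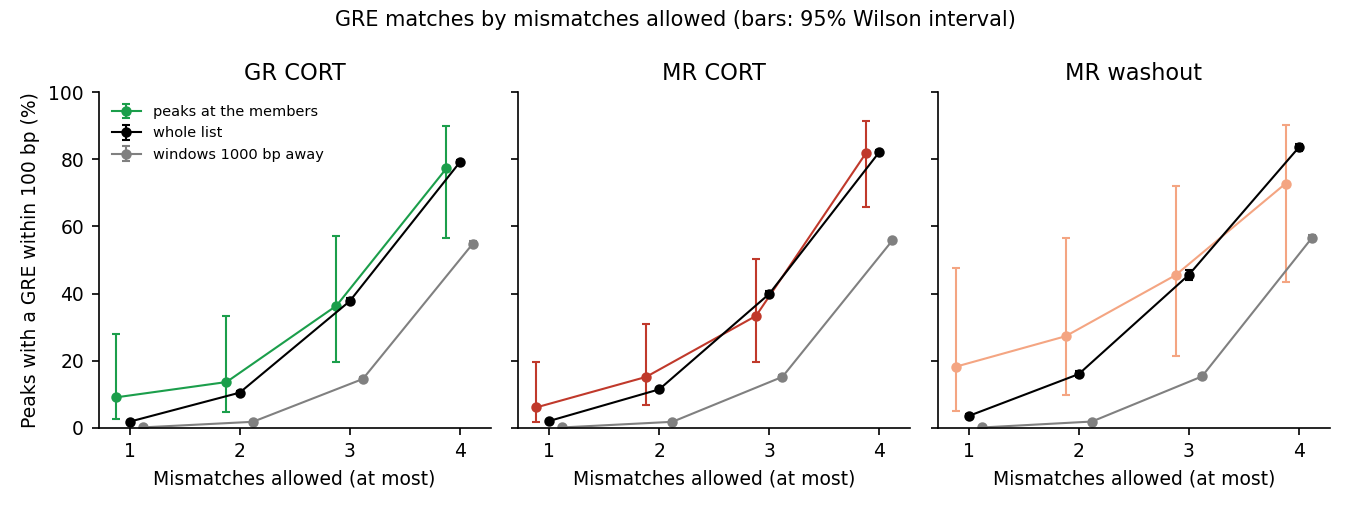
Percent of peaks with a GRE within 100 bp of the summit (vertical axis) by the number of mismatches allowed (horizontal axis), for peaks at the 9 genes, for the whole list and for windows 1000 bp away, with 95% Wilson intervals as bars. At 3 mismatches the coloured points (36.4%, 33.3% and 45.5%) have intervals that contain the values of the whole lists. At 1 mismatch those for GR CORT and MR washout lie above them, from 2 peaks each.

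Matches to other factors within 100 bp of the summit, on either strand, were few. The AP-1 consensus given above occurred exactly at 3 GR and 5 MR CORT peaks (13.6% and 15.2%, whole lists 8.73% and 7.81%), and 1 of each belonged to the Ddc intron 7 site. The GATA consensus AGATAA occurred at 4 GR and 6 MR CORT peaks (18.2% and 18.2%, whole lists 11.5% and 12.6%), including the Pnmt promoter peaks. NF-1, read as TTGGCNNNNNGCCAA with at most 2 mismatches, was met at 3 GR and 5 MR CORT peaks (whole lists 9.29% and 8.60%), among them the GR and MR peaks of both shared Th sites. The Phox2a motif with at most 1 mismatch was met at 1 GR and 2 MR CORT peaks (3.30% and 3.85%). For these CORT peaks each interval of a member share contained the value of the whole list. Of the 11 MR washout peaks, 1 had an AP-1 match (whole list 9.20%), 2 a GATA match (15.8%) and 1 a Phox2a match (5.41%). Each of these intervals contained the value of the whole list. For NF-1 there were 3 (27.3%, 9.75% to 56.6%, whole list 9.65%), at both shared Th sites and upstream of Ddc. That interval began just above the value of the whole list, but it rests on 3 peaks and was 1 of several compared.

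RefSeq promoters (GRCm38, 250 bases before to 50 after a start) were at hand for 6 of the 9 genes, 7 promoters in all. Pnmt, Slc18a1 and Slc6a2 had no entry. The GRE upstream of Pnmt was not part of this scan, and it also lay further upstream of the start than the 250 bases covered. Of the 7 promoters none held a GRE, against 14.5% of 32851 promoters, an AP-1 match (5.20%) or a Phox2a match (2.38%). With 7 promoters, such counts are too few to set the genes apart from these shares. A GATA match occurred in that of Slc18a2 (11.2% of all) and an NF-1 match in that of Ddc (11.8%).

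Receptor border pairs, called by MACE from the same reads as the peaks, are not independent of them. At the 9 genes there was 1 border pair for GR after CORT, 10 for MR after CORT and 3 for MR after washout, from lists of 139, 3285 and 1670 border pairs. These lengths differ so much that the counts are not compared between lists. The MR CORT list has the number of border pairs that the paper reports. The GR CORT list is far shorter than the number reported there, and shorter than the GR vehicle list (623). A missing GR border pair is therefore not read as a result. All but 1 of them lay in peaks. At Ddc intron 7 the GR pair spanned 93 bp and an MR pair 48 bp, both holding the whole GRE, and after washout an MR pair of 38 bp held it too. Another MR CORT pair there (47 bp) lay 111 bp from the GRE, and another MR washout pair (37 bp) touched the GRE without holding it. At Pnmt an MR CORT pair of 21 bp held the GRE, with the midpoints 3 bp apart. The MR washout pair at Pnmt (91 bp) lay 155 bp from the GRE. At Ddc intron 4 and Slc18a2 intron 3 the MR pairs lay 48 to 81 bp away from the GRE. Input had 3 border pairs at these genes, near Ddc (1) and Slc6a2 (2), and none was in a receptor peak.

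Other genes of catecholamine biology were looked up in the same way, 27 in all. Of these, 7 had a GR CORT peak (background 26.3% of protein-coding genes), 11 an MR CORT peak (30.2%), 6 an MR washout peak (14.3%) and none a GR washout or vehicle peak, so the GR count was near the background. By role, 3 of 5 cofactor genes (Pts, Pcbd1 and Gchfr), 1 of 3 breakdown genes (Rnls) and 2 of 3 granule genes (Chga and Cyb561) had an MR CORT peak. So did 5 of 14 adrenergic and dopamine receptor genes (Adra2b, Adra2c, Adrb1, Adrb3 and Drd4), but none of 2 uptake genes. The background for each role is the 30.2% given above, and none of the remaining genes had a peak in any list.

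Chga, which encodes the granule protein chromogranin A, ranked highest among them by its best MR CORT peak. Its best peaks had a −log10 p of 31.8 for GR after CORT (rank 61), 29.6 for MR after CORT (rank 211) and 34.5 for MR after washout (rank 39), each 7.91 to 7.96 kb from the start. Chga thus stood in the strongest 2% of all 3 lists, as the Ddc intron 7 site did. For the genes that follow, the values are also of the best peak in each list, which need not be at the same site. The α2B-adrenergic receptor gene Adra2b had 14.2, 18.7 and 13.2 in the same order. Its best GR peak lay 22.8 kb from the start and its best MR peaks 16.2 kb. For the β3-adrenergic receptor gene Adrb3 the values were 16.7, 18.2 and 17.0. Its best CORT peaks lay 10.5 kb from its start and were nearer to the start of Eif4ebp1. Its best MR washout peak was at another site, 40.1 kb from its start and nearer to that of Got1l1. Gchfr, which encodes the feedback regulator of GTP cyclohydrolase, had 11.4, 16.5 and 7.69. Its best CORT peaks lay 4.74 and 4.75 kb from the start and its best MR washout peak 0.263 kb. Rnls, the gene of renalase, had no GR peak and 16.5 and 10.9 for MR.

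The limit of 20 kb mattered for Dbh, Slc6a2 and Gch1. Every Dbh peak lay 8.22 to 8.55 kb upstream of the gene, and the Slc6a2 peak lay 12.9 kb past its end. For Gch1 both GR peaks lay 17.0 and 18.2 kb outside the gene. Its MR peaks lay 18.1 and 19.8 kb outside it, apart from the one in intron 3. Slc18a2 had an MR peak 15.8 kb and a GR peak 16.0 kb past its end. With a limit of 5 kb, 5 genes had a GR CORT peak (Dbh and Gch1 dropped out) and 6 an MR CORT peak (Dbh and Slc6a2 dropped out). This left 16 GR and 26 MR CORT peaks in all, and 4 genes with an MR washout peak (Dbh dropped out). The MR peak of Gch1 19.8 kb past the gene's end was the outermost inside the limit of 20 kb. The nearest outside were MR peaks 27.4 and 28.8 kb from Slc18a1 (6.81 and 13.7) and a GR peak 28.9 kb from it (6.63), all nearer to the start of Lzts1. Strong peaks 49.7 kb from Dbh, with 18.1 for GR and 36.4 for MR after CORT, were nearer to the start of Sardh.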

How the data were processed

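ChIP-nexus peaks and border pairs were analysed for 6 receptor samples, with 3 input samples used through their border pairs. The authors aligned reads to GRCm38 with Bowtie 2, removed PCR duplicates by random barcode, pooled the replicates and called peaks against input with MACS2 2.1.1.20160309 at a false discovery rate of 0.05. Border pairs came from MACE. The deposited −log10 values are −log10 p and, under a heading for fold enrichment, −log10 q. The deposited score equals 10 times −log10 q without its decimals, with 1 exception. MACE also gave the p-value deposited with each border pair, absent for GR after CORT and not used here. No file gives read depth.

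Genes were those of GENCODE M21. Distances, overlaps (at least 1 bp) and consensus matches were computed with Python 3.11.15, numpy 2.4.6, pandas 2.3.3 and scipy 1.17.1, checked on simulated data with planted matches, and drawn with matplotlib 3.10.9. Percentages have 95% Wilson intervals, for counting error only, with peaks of the same site counted as separate. Since no fold enrichment is listed, peaks were ranked by −log10 p. The members, gene lists and limits were chosen with earlier results of these data known. All 9 members are named, as are other pathway genes with a peak (1 gene of that list is not reported here), the 3 genes with counts most like those of Slc18a2, and protein-coding genes whose start was nearer to a member's peak.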

Additional observations from a re-analysis of the deposited data

How the results depend on the processing

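Of the alternatives to the limits on distance, −log10 q, overlap and motif, 59 values moved by less than the limits of sameness and 11 moved further. Those limits were 1.5 times for a count and the Wilson interval for a share. The 59 include vehicle counts that stayed at 0 under every setting, and the intervals are wide at such small counts. The share of MR CORT peaks that overlapped a GR CORT peak went from 45.5% to 61.1% at a −log10 q of at least 5 and is among the 59. The tally is therefore not a measure of how stable the results are. Keeping only peaks with a −log10 q of at least 5 left 13 GR CORT, 18 MR CORT and 7 MR washout peaks at the members. Keeping only peaks for which the member had the nearest start left 7 MR washout and 0 GR washout peaks, since the Ddc intron 7 site is nearer to Fignl1. With summits within 50 bp in place of overlap, 27.3% of the MR CORT peaks met a GR CORT peak. A GRE with at most 2 mismatches was found at 13.6% of GR and 15.2% of MR CORT peaks, and with at most 4 mismatches at 77.3% and 81.8%. With 200 bp to each side it was found at 51.5% of MR CORT peaks. With 1 list per condition no library could be left out, and depth limits every absent peak. No paired analysis was possible because the replicates were pooled before the peaks were called.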

Other observations

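Slc18a2, which among the 9 genes had the most CORT peaks when GR and MR were added (16), was set beside all other protein-coding genes by its counts over the 6 lists, as the sum of the absolute differences. The closest were Blcap, with 8 GR and 7 MR CORT peaks (a distance of 1), Adcyap1r1, the gene of the PACAP receptor, with 8 GR and 7 MR CORT peaks and 1 MR washout peak (2), and Nnat, with 8 GR and 6 MR CORT peaks (2). Nnat lies within Blcap, so their counts share peaks. These are descriptions over 6 lists, with no test.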
